A study of Mus musculus with 16 samples.

Results

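The genes described here encode the nuclear part of the mitochondrial respiratory chain and of ATP synthase, with a few assembly factors that carry the same name stems. They were taken by symbol: every entry whose symbol begins with Nduf, Uqcr, Cox4 to Cox8, Atp5 or Sdha to Sdhd, leaving out pseudogene entries, which gave 96 of the 52636 entries. By complex these are 44 for complex I, 8 for complex II, 8 for complex III, 20 for complex IV and 16 for complex V, and 13 of them are assembly or coupling factors rather than subunits. RNA was sequenced from RAW 264.7 cells, an established mouse macrophage-like tumour line, in 16 libraries, 4 for each of 4 groups: control siRNA alone, Cebpb siRNA alone, and each of them followed by isoproterenol, an agonist of β-adrenergic receptors. Cebpb encodes the transcription factor C/EBPβ. All cells were transfected by lipid at 25 nM for 24 h before stimulation, with 1 control product and 1 product against Cebpb, so that an effect of the product and an effect of losing Cebpb cannot be told apart. Cells without isoproterenol are labelled as having no agent. The sources used here do not give the concentration of isoproterenol or the time of exposure. The libraries come from 2 experiments with 2 replicates of each group in each. They are described as biological replicates, but nothing says that each came from its own culture, so p-values measure only the spread between these libraries, which may be technical.

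The respiratory chain passes electrons from NADH and succinate to oxygen and pumps protons across the inner mitochondrial membrane as it does so. Complex I takes electrons from NADH, complex II from succinate, complex III passes them from ubiquinol to cytochrome c, complex IV reduces oxygen, and complex V, the ATP synthase, lets protons back through a rotating ring and makes ATP. Complex I, III, IV and V are built from subunits of nuclear and mitochondrial genes, and complex II from nuclear genes alone. In macrophages the chain is known to be used differently in alternative and in classical activation, and complex I and II are sources of reactive oxygen species.

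Levels are reads per 1000000 sequenced reads of any kind (RPM), as the authors deposited them, where anything up to 1 RPM is set to 0. Depth ranged from 9.42 to 25.2 M reads per library and from 5.81 to 15.9 M reads on genes, so the floor of 1 RPM stood for 9 to 25 reads. The shallowest library was replicate 2 of experiment 2 of Cebpb siRNA without isoproterenol, and the next lowest had 13.7 M reads. All 8 macrophage markers looked up (Adgre1, Csf1r, Cd68, Lyz2, Spi1, Itgam, Cd14 and Fcgr3) were above the floor in every library, with a summed level of 1272 to 2197 RPM, and the 17 markers of fibroblasts, epithelium, T cells, B cells and erythroid cells were listed at 0 in all 16. Of the 4 neutrophil markers, S100a8 alone was listed above 0, at up to 5.84 RPM. Where 4 values of a group are given, they stand in the order replicate 1 and 2 of experiment 1, then replicate 1 and 2 of experiment 2. Cebpb itself stood at 74.5, 61.3, 81.4 and 87.3 RPM with control siRNA and at 11.8, 25.0, 21.8 and 33.1 RPM with its siRNA. With isoproterenol it stood at 101, 78.0, 99.1 and 90.6 and at 28.5, 27.6, 25.8 and 23.9 RPM. The groups did not overlap, and the log2 fold change was −1.72 ± 0.19 (adjusted p = 1.66e-07) without isoproterenol and −1.72 ± 0.19 (adjusted p = 1.50e-07) with it. Here and below, log2 fold changes with their standard errors come from limma after scaling the libraries to each other, p-values are adjusted by the Benjamini-Hochberg method over all 11141 genes tested, and a gene is said to have risen or fallen where the adjusted p is below 0.05.

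Of the 96 genes, 90 were tested, having been above the floor in at least 4 libraries, and 87 were above it in all 16. The 6 untested genes are tissue isoforms, listed at 0 in all libraries. Among all 96, 40 had a mean of at least 100 RPM, 37 had between 10 and 100 RPM and 19 less than 10 RPM. The highest was Atp5g3, one of the genes for the rotating c-ring, at a mean of 1278 RPM over the 16 libraries. In these 3′-end libraries a gene gives about as many reads per transcript whatever its length. Since RNA was taken from whole wells, fewer cells and less RNA per cell cannot be told apart.

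Cebpb siRNA moved genes in both directions and isoproterenol moved few, among the respiratory chain genes as among all genes tested. Of all genes, isoproterenol moved 1.54% in control siRNA cells and 5.43% in Cebpb siRNA cells. Without isoproterenol, 27 of the 90 tested genes were higher with Cebpb siRNA (30%, against 31.3% of all genes tested) and 15 were lower (16.7%, against 29.6%). With isoproterenol in both groups, 35 were higher (38.9%, against 31.8% of all genes) and 13 lower (14.4%, against 29.7%). The share of higher genes was thus close to that of the whole transcriptome in the first comparison, where 60.8% of all genes were called in 1 direction or the other. The median log2 change of the 90 genes was 0.11 without and 0.12 with isoproterenol, beside 0.02 over all genes in each. These splits depend on the scaling. On the values as deposited, 15 were higher and 21 lower without isoproterenol, and 21 higher and 16 lower with it, with medians of 0.01 and 0.05 beside −0.07 and −0.04 over all genes. No gene called in the scaled values had the other sign in the deposited ones.

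The 3 largest falls among genes above 10 RPM stood apart from the rest. They were Ndufv2 and Ndufab1 of complex I and Atp5f1 of complex V, at 48.9%, 52.9% and 49.9% of their control levels without isoproterenol. The next fall among such genes was that of Sdhaf1, to 72.7%, and most other genes of complex I and V did not fall. The transcripts of these 3 genes share a 7-base word, AACTTGT, at or after the stop codon. This word had come up in an earlier look at the same fold changes as common in 3′ UTRs of lower genes, so its presence here is a description and no evidence. The windows below are 30 bases of the GRCm38 transcript strand, read from GENCODE vM21 transcripts, with the word in capitals. They are shown for the 3 genes, for Ndufv3, which carries the word and was higher, and for Cebpb, which holds it in its coding sequence.
Ndufv2: agcaggcctttAACTTGTattcaactgtaa
Ndufab1: cggctctgttcAACTTGTatttaaattgtc
Atp5f1: gttataatttaAACTTGTaattaactaaag
Ndufv3: ggcaaaccctgAACTTGTtaatattccagt
Cebpb: gcaccctgcggAACTTGTtcaagcagctgc

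In Ndufv2 the word lies on the minus strand at chr17:66079489-66079495 and begins inside the stop codon. In Ndufab1 it lies in the 3′ UTR of 2 of 4 annotated coding transcripts, on the minus strand at chr7:122090884-122090890. In Atp5f1 it lies in the 3′ UTR of 1 of 2 transcripts, 41 bases before its annotated end, on the minus strand at chr3:105942739-105942745. Ndufv3 holds it in the 3′ UTR of 1 of 3 transcripts, on the plus strand at chr17:31526926-31526932, and Cebpb in its coding sequence, on the plus strand at chr2:167689859-167689865. Searched on the transcript strand in any annotated 3′ UTR, the word was present in 6 of the 96 genes (6.25%), tested or not. It was present in 2676 of 20991 genes with a 3′ UTR, tested or not (12.75%), and in 1609 of 10145 tested genes with a 3′ UTR (15.9%). The length of the 3′ UTRs was not taken into account in these shares. The 6 of the 96 are Ndufab1, Atp5f1 and Ndufaf7, which fell in both comparisons, Ndufv3, which rose, Atp5g2, which did not pass, and Cox7b2, listed at 0. The site in Ndufaf7 is coding in the longer reading frame and 3′ UTR in another transcript. Extending the search beyond the longest 3′ UTR of each gene, which finds 5 of the 96, was decided after the values were seen, as was the look across the stop codon of Ndufv2. Elsewhere in the coding transcripts searched, Ndufa13, which rose in both comparisons, holds the word before or across its start codon. The siRNA sequence was not used here, and any part of the word in these falls was not tested.

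**Figure D1:**
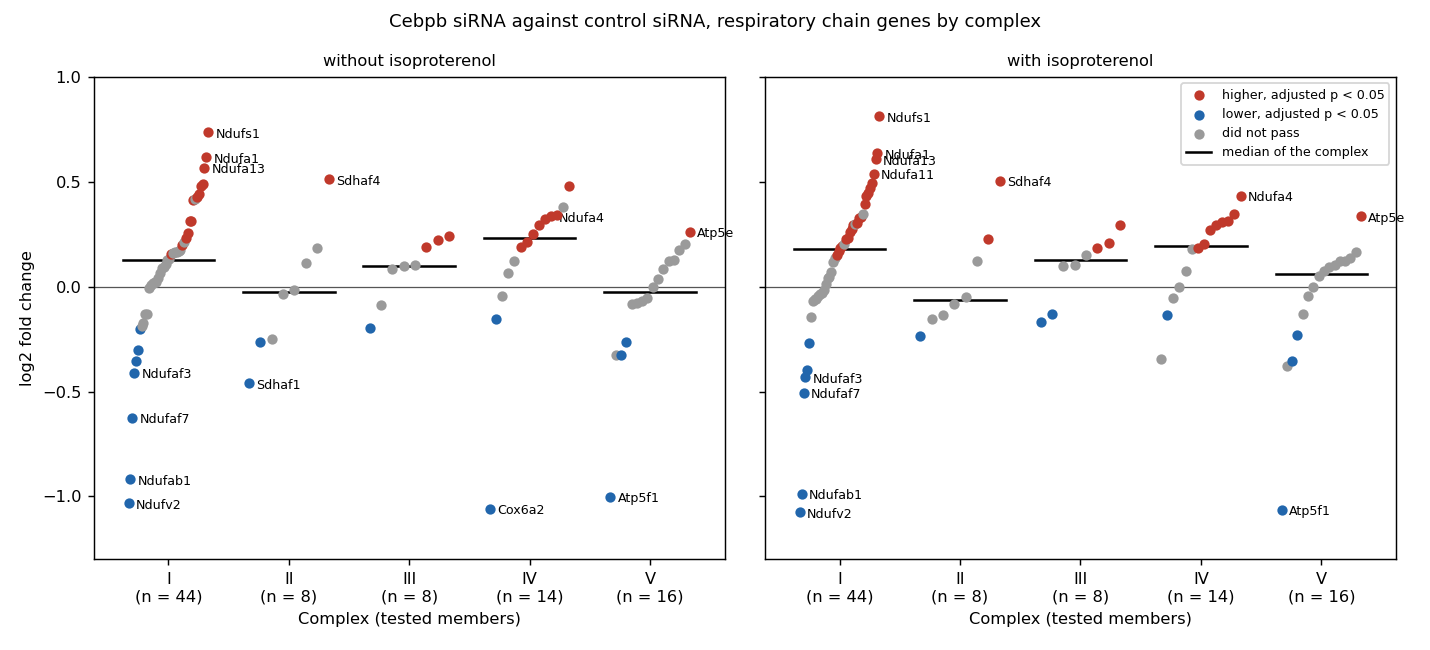
Each point is 1 of the 90 tested genes, placed by complex on the x axis and by its log2 fold change of Cebpb siRNA against control siRNA on the y axis, without isoproterenol on the left and with it on the right. Red and blue points passed the test at an adjusted p below 0.05, grey ones did not, and black bars are medians. Ndufv2, Ndufab1 and Atp5f1 lie near −1 in both panels while most of complex I and IV lies above 0 after scaling. On deposited values complex I had 8 higher and 10 lower genes without isoproterenol, so no direction is given for it.

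Complex I holds the most genes, and Cebpb siRNA moved them in both directions. Without isoproterenol 14 of its 44 genes were higher and 7 lower with Cebpb siRNA, which is 31.8% and 15.9%, against 31.3% and 29.6% of all genes. With isoproterenol 21 were higher and 6 lower, which is 47.7% and 13.6%, against 31.8% and 29.7%. The median log2 change was 0.13 and 0.18. On deposited values the split turned to 8 higher and 10 lower without isoproterenol and was 13 higher and 7 lower with it, so a direction for the complex as a whole is not given. Its 7 nuclear core subunits, which carry the flavin and the iron-sulfur clusters, did not move together.

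Ndufv2, which holds an iron-sulfur cluster next to the NADH site (chr17:66078638-66101559, minus strand), stood at 79.9, 83.2, 79.5 and 81.6 RPM with control siRNA and at 37.0, 42.1, 34.0 and 35.6 RPM with Cebpb siRNA. With isoproterenol the values were 83.7, 88.3, 81.4 and 91.3 RPM and 39.5, 44.4, 37.7 and 34.4 RPM. Every Cebpb siRNA library was below every control library in both settings. The log2 change was −1.03 ± 0.06 (adjusted p = 9.17e-12) without isoproterenol and −1.08 ± 0.06 (adjusted p = 4.53e-12) with it, and within experiment 1 and experiment 2 it was −0.99 and −1.07 without isoproterenol.

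Ndufs1, the largest core subunit, which carries iron-sulfur clusters further along the same arm (chr1:63143596-63176833, minus strand), went the other way. It stood at 43.4, 42.1, 49.1 and 44.4 RPM with control siRNA and 68.9, 71.3, 72.4 and 66.0 RPM with Cebpb siRNA, and with isoproterenol at 41.1, 47.2, 44.9 and 48.5 and 76.9, 77.7, 74.0 and 74.2 RPM. Again the groups did not overlap in either setting. It rose by a log2 of 0.74 ± 0.06 (adjusted p = 6.32e-10) and 0.81 ± 0.06 (adjusted p = 1.14e-10), the largest rise among the 90 genes in both comparisons.

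Other core subunits changed less. Ndufs7, which carries the last cluster before quinone, fell without isoproterenol, at −0.20 ± 0.08 (adjusted p = 0.0359), and was at −0.04 ± 0.08 (adjusted p = 0.724) with it. Ndufv1, the subunit that binds NADH and the flavin, was at 0.17 ± 0.08 (adjusted p = 0.0784) without isoproterenol and rose by 0.23 ± 0.08 (adjusted p = 0.0239) with it. Ndufs8, a further iron-sulfur subunit, did not pass in either comparison, at −0.17 and −0.06. Ndufs3 did not pass either, at 0.42 and 0.30 and a control mean of 6.49 ± 1.47 RPM (SD, n = 4), and its level is uncertain because 53.0% of the 50-base words in its last 300 bases also occur in other annotated genes.

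Among the accessory subunits, Ndufab1 is the mitochondrial acyl carrier protein, which also serves fatty acid and lipoic acid synthesis (chr7:122085403-122101886, minus strand). It stood at 97.1, 88.2, 89.2 and 97.2 RPM with control siRNA and 43.6, 54.5, 49.7 and 37.8 RPM with Cebpb siRNA. With isoproterenol the levels were 89.1, 96.2, 94.9 and 91.0 and 40.1, 45.8, 45.4 and 46.8 RPM. No library of one siRNA reached the range of the other. It fell, with log2 changes of −0.92 ± 0.08 (adjusted p = 1.24e-09) and −0.99 ± 0.08 (adjusted p = 3.48e-10).

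In the peripheral arm, which takes up NADH, 5 of 9 accessory genes rose without isoproterenol and 7 of 9 with it (55.6% and 77.8%, against 31.3% and 31.8% of all genes), and 3 and 5 on deposited values. Ndufa6, a subunit of the family of LYR proteins that binds the acyl carrier protein, rose by 0.41 ± 0.05 (adjusted p = 4.15e-07) and 0.47 ± 0.05 (adjusted p = 5.84e-08). Ndufa2, an accessory subunit beside the core protein Ndufs1, rose by 0.31 ± 0.06 (adjusted p = 0.000105) and 0.39 ± 0.06 (adjusted p = 6.17e-06). Ndufv3, a small subunit of the NADH module, rose by 0.23 ± 0.09 (adjusted p = 0.0324) and 0.43 ± 0.09 (adjusted p = 0.000336), but within the experiments the first of these was 0.44 and 0.03. Ndufa5, in contrast, did not pass, at −0.13 and 0.21.

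In the membrane arm, which pumps protons, 6 of 19 accessory genes rose and 2 fell without isoproterenol. With it 10 rose and 1 fell. The share that rose without isoproterenol, 31.6%, was close to the 31.3% of all genes. With isoproterenol it was 52.6%, against 31.8% of all genes. The share that fell was below that of all genes in both settings (29.6% and 29.7%), and was 5.26% with isoproterenol. On deposited values 4 rose and 2 fell, and 6 rose and 2 fell. Ndufa13, also known as GRIM-19 (chr8:69894180-69902558, minus strand), stood at 73.6, 70.5, 89.7 and 76.9 RPM with control siRNA and 108, 117, 106 and 98.7 RPM with Cebpb siRNA. Under isoproterenol the values were 75.7, 95.2, 86.2 and 104 and 116, 128, 143 and 134 RPM. The Cebpb siRNA libraries were the higher ones throughout, with no overlap, and the rises were 0.57 ± 0.08 (adjusted p = 1.52e-06) and 0.61 ± 0.08 (adjusted p = 5.37e-07).

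Ndufa11, a membrane-embedded accessory subunit (chr17:56717767-56722141, plus strand), was listed at 101, 96.7, 110.1 and 109 RPM and at 131, 146, 149 and 120.0 RPM in the control and Cebpb siRNA libraries. With isoproterenol the values were 102, 115, 117 and 109 and 140.1, 155, 158 and 159 RPM. The groups did not overlap, and the gene rose by 0.48 ± 0.06 (adjusted p = 5.30e-07) and 0.54 ± 0.06 (adjusted p = 9.32e-08), with 15.5% of its tail shared with another gene. Ndufa1, a small membrane subunit, varied more between Cebpb siRNA libraries, with 57.2, 54.4, 64.6 and 58.6 RPM in the controls and 77.7, 83.7, 66.7 and 115 RPM with the siRNA. With isoproterenol its ranges overlapped, at 58.9, 61.7, 59.7 and 80.5 against 115, 102, 97.9 and 72.7 RPM. It rose by 0.62 ± 0.14 (adjusted p = 0.000949) and 0.64 ± 0.14 (adjusted p = 0.000686).

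The remaining rises of the membrane arm that were named by size were smaller. Ndufb2 rose by 0.49 ± 0.09 (adjusted p = 6.93e-05) and 0.45 ± 0.09 (adjusted p = 0.000173), with 29.5% of its tail shared with other genes. Ndufb3 rose by 0.31 ± 0.11 (adjusted p = 0.0185) and 0.31 ± 0.11 (adjusted p = 0.0204), the first of which was lost on deposited values. It has 19.1% of its tail shared with another gene. Ndufb10, a disulfide-bonded subunit of the distal membrane arm, fell. It stood at 45.7, 48.2, 56.8 and 51.5 RPM with control and 36.5, 38.4, 38.3 and 34.5 RPM with Cebpb siRNA, and with isoproterenol at 47.5, 53.1, 56.1 and 58.4 and 38.3, 41.7, 46.0 and 43.4 RPM, with no overlap in either setting. Its log2 change was −0.35 ± 0.06 (adjusted p = 5.34e-05) and −0.27 ± 0.06 (adjusted p = 0.000867). Ndufa10, a subunit related to nucleoside kinases, fell, with a log2 change of −0.30 ± 0.07 (adjusted p = 0.000466) without isoproterenol and was at −0.14 ± 0.07 (adjusted p = 0.0676) with it.

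Of the 8 complex I assembly factors, 1 rose and 2 fell without isoproterenol, and 1 rose and 3 fell with it. The shares were 12.5% and 25.0% without isoproterenol, against 31.3% and 29.6% of all genes. With it they were 12.5% and 37.5%, against 31.8% and 29.7%. Ndufaf7, an arginine methyltransferase that acts in complex I assembly (chr17:78937136-78948052, plus strand), stood at 10.6, 12.9, 9.73 and 8.22 RPM with control siRNA and 6.59, 7.04, 5.08 and 6.26 RPM with Cebpb siRNA. With isoproterenol the libraries gave 10.98, 11.7, 10.3 and 8.92 and 8.68, 6.92, 6.41 and 6.11 RPM. The deposited ranges did not overlap, but after scaling they did with isoproterenol, and the log2 changes were −0.63 ± 0.12 (adjusted p = 8.83e-05) and −0.51 ± 0.12 (adjusted p = 0.000746). This gene lies under the mean of 10 RPM set for naming genes by size, was named after its values were seen because it carries the word, and shares 29.9% of its tail with other genes. Ndufaf3, which acts early in the assembly of the quinone module, fell, with log2 changes of −0.41 ± 0.10 (adjusted p = 0.00112) and −0.43 ± 0.10 (adjusted p = 0.000705).

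**Figure D2:**
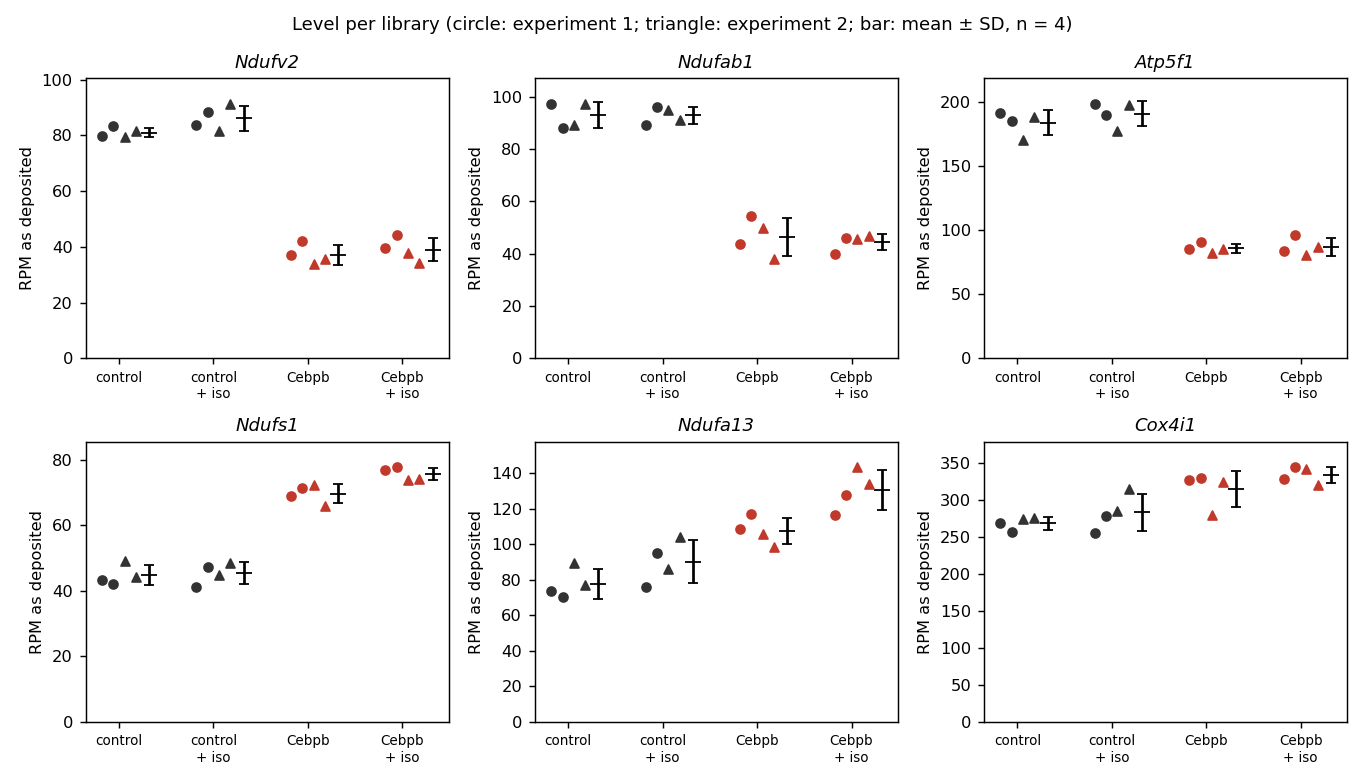
Levels in RPM as deposited (y axis) of 6 genes in the 16 libraries, by group on the x axis, where iso is isoproterenol; circles are experiment 1, triangles experiment 2, and the bar is the mean ± SD of 4 libraries. In each panel the Cebpb siRNA libraries (red) and the control siRNA libraries (black) of a setting form separate ranges, lower for Ndufv2, Ndufab1 and Atp5f1 and higher for Ndufs1, Ndufa13 and Cox4i1.

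Complex II, succinate dehydrogenase, had 1 higher and 2 lower genes among its 8 without isoproterenol, and 2 higher and 1 lower with it. The shares were 12.5% and 25.0% without isoproterenol, against 31.3% and 29.6% of all genes. With it they were 25.0% and 12.5%, against 31.8% and 29.7%. Of its 4 subunits only Sdha, the flavoprotein that oxidises succinate, changed (chr13:74322254-74350280, minus strand). It stood at 93.9, 93.6, 91.0 and 96.3 RPM with control siRNA and at 70.3, 73.3, 75.2 and 73.3 RPM with Cebpb siRNA. After isoproterenol it was listed at 82.7, 94.7, 88.9 and 89.1 and 70.0, 69.5, 75.9 and 71.2 RPM. The groups did not overlap, and Sdha fell, with log2 changes of −0.26 ± 0.05 (adjusted p = 0.00025) and −0.24 ± 0.05 (adjusted p = 0.000702). The iron-sulfur subunit Sdhb was at −0.02 and 0.12, and the membrane anchor Sdhc at −0.04 and −0.08. The other anchor, Sdhd, was at −0.25 ± 0.14 (adjusted p = 0.126) and −0.15 ± 0.14 (adjusted p = 0.358), and it passed without isoproterenol on deposited values, at −0.35.

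The assembly factors of complex II were split. Sdhaf4, which binds the flavinated form of Sdha, stood at 17.2, 16.3, 14.0 and 15.9 RPM with control siRNA and 22.4, 25.0, 15.8 and 22.4 RPM with Cebpb siRNA. With isoproterenol the values were 18.5, 16.6, 14.2 and 14.1 and 25.4, 24.8, 18.9 and 17.3 RPM. The ranges overlapped in both settings, while within each experiment the Cebpb siRNA means were higher, by 0.55 and 0.47 on the log2 scale without isoproterenol. It rose by 0.51 ± 0.10 (adjusted p = 0.00015) and 0.51 ± 0.10 (adjusted p = 0.000161). Sdhaf1, needed for the iron-sulfur clusters of Sdhb, fell, with a log2 change of −0.46 ± 0.10 (adjusted p = 0.000368) without isoproterenol and was at −0.13 ± 0.10 (adjusted p = 0.252) with it.

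In complex III, cytochrome bc1, 3 of 8 genes were higher and 1 lower without isoproterenol, and 3 higher and 2 lower with it. The shares were 37.5% and 12.5% without isoproterenol, against 31.3% and 29.6% of all genes. With it they were 37.5% and 25.0%, against 31.8% and 29.7%. On deposited values 1 was higher and 2 lower in each setting. Uqcrc2, a core protein that faces the matrix (chr7:120635176-120659524, plus strand), stood at 111, 105, 116 and 112 RPM with control siRNA and 84.7, 91.5, 96.9 and 88.9 RPM with Cebpb siRNA. With isoproterenol it was listed at 113, 128, 118 and 129 and 94.1, 105, 113 and 101 RPM. The deposited ranges were separate, but after scaling they overlapped with isoproterenol, and the gene fell, with log2 changes of −0.20 ± 0.06 (adjusted p = 0.00422) and −0.17 ± 0.06 (adjusted p = 0.0123). Its partner core protein Uqcrc1 was at 0.08 and 0.10 and the Rieske iron-sulfur protein Uqcrfs1 at 0.10 and 0.15, neither past the threshold.

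Uqcrb, an accessory subunit near the quinone site, stood at 84.0, 78.9, 80.5 and 84.1 RPM in the controls and 94.9, 94.4, 91.9 and 81.8 RPM with Cebpb siRNA, and with isoproterenol at 86.8, 92.0, 82.7 and 86.1 and 91.1, 97.5, 95.1 and 91.8 RPM. The deposited levels overlapped in both settings. After scaling it rose by 0.24 ± 0.05 (adjusted p = 0.000424) and 0.18 ± 0.05 (adjusted p = 0.00426), and 40.6% of its tail is shared with other genes. Uqcrq, a small subunit, fell with isoproterenol, at −0.13 ± 0.05 (adjusted p = 0.0239), and was at −0.09 ± 0.05 (adjusted p = 0.132) without it.

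Complex IV, cytochrome c oxidase, had a median log2 change of 0.23 without and 0.19 with isoproterenol. Of its 14 tested genes 8 were higher and 2 lower without isoproterenol, and 8 higher and 1 lower with it. The shares were 57.1% and 14.3% without isoproterenol, against 31.3% and 29.6% of all genes. With it they were 57.1% and 7.14%, against 31.8% and 29.7%. On deposited values 4 were higher and 2 lower without isoproterenol, and 5 higher and 2 lower with it. Cox4i1, the regulatory subunit found in most tissues (chr8:120668222-120674207, plus strand), stood at 269, 256, 274 and 275 RPM with control siRNA and 327, 329.9, 279 and 324 RPM with Cebpb siRNA. With isoproterenol it stood at 255, 278, 285 and 315 and 328, 344, 342 and 321 RPM. There was no overlap, though 1 Cebpb siRNA library of experiment 2 lay close to the controls. Cox4i1 rose by 0.32 ± 0.06 (adjusted p = 0.00012) and 0.31 ± 0.06 (adjusted p = 0.000164).

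Cox7a2, the common form of subunit VIIa (chr9:79755361-79759878, minus strand), stood at 299, 285, 285 and 304 RPM in control and 336, 358, 329 and 367 RPM in Cebpb siRNA libraries. With isoproterenol the values were 291, 303, 302 and 319 and 357, 369, 337 and 354 RPM. The ranges were separate, and the gene rose by 0.34 ± 0.05 (adjusted p = 9.94e-06) and 0.30 ± 0.05 (adjusted p = 5.31e-05). Ndufa4, once assigned to complex I and now known as a subunit of complex IV, stood at 51.6, 60.4, 64.0 and 59.3 RPM and 65.4, 68.5, 64.2 and 80.1 RPM. With isoproterenol it was at 62.0, 62.9, 61.3 and 70.1 and 89.3, 83.6, 82.4 and 74.2 RPM. The margin between the ranges was narrow without isoproterenol and wider with it, and the rises were 0.34 ± 0.08 (adjusted p = 0.00146) and 0.43 ± 0.08 (adjusted p = 0.000109).

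The other common subunits were mostly higher by less. Cox6c rose by 0.29 ± 0.05 (adjusted p = 1.98e-05) and 0.35 ± 0.05 (adjusted p = 2.24e-06), with 38.2% of its tail shared with other genes. Cox8a rose by 0.25 and 0.18, Cox6a1 by 0.19 and 0.20, and Cox7b by 0.21 and 0.31. On deposited values Cox8a and Cox6a1 passed in neither comparison and Cox7b passed with isoproterenol alone. Cox5a, a matrix-side subunit that binds a thyroid hormone metabolite, fell, with log2 changes of −0.15 ± 0.06 (adjusted p = 0.0246) and −0.13 ± 0.06 (adjusted p = 0.0453). Cox6b1, which faces the intermembrane space, was at 0.12 and 0.08, without passing.

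The tissue isoforms of complex IV were at or near the floor. Cox4i2, Cox6b2, Cox7b2, Cox8b, Cox8c and Ndufa4l2 were listed at 0 in all 16 libraries. Cox6a2, the heart and muscle form of subunit VIa, stood at 2.73, 1.89, 2.58 and 2.10 RPM with control siRNA and at 1.04, 1.12, 1.85 and 1.82 RPM with isoproterenol added, and was listed at 0 in all 8 Cebpb siRNA libraries. It passed the test without isoproterenol, at −1.06 ± 0.17 (adjusted p = 1.03e-05), a value that is set by the floor and gives no fold. Cox7a1, the heart and muscle form of subunit VIIa, had a control mean of 4.16 ± 1.30 RPM (SD, n = 4) and a log2 change of 0.48 ± 0.20 (adjusted p = 0.0415) without isoproterenol, lost on deposited values, and −0.001 with it. Cox7a2l, a factor that joins complex III and IV into supercomplexes, was at 0.06 ± 0.10 (adjusted p = 0.589) without isoproterenol and 0.27 ± 0.10 (adjusted p = 0.0194) with it, the latter lost on deposited values.

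Complex V, the ATP synthase, had 1 higher and 3 lower of 16 in each setting, with medians of −0.03 and 0.06. That is 6.25% and 18.8%, against 31.3% and 29.6% of all genes without isoproterenol and 31.8% and 29.7% with it. On deposited values 1 was higher and 4 lower in each. The peripheral stalk, which holds the catalytic head against the membrane, had 2 lower genes of 4. Atp5f1, the b subunit of that stalk (chr3:105942698-105960099, minus strand), stood at 191, 185, 170.1 and 188 RPM with control siRNA and 85.0, 90.8, 82.3 and 85.1 RPM with Cebpb siRNA. With isoproterenol it stood at 198, 189.8, 177 and 197 and 83.8, 96.5, 80.3 and 86.5 RPM. The groups were far apart, and Atp5f1 fell, with log2 changes of −1.002 ± 0.06 (adjusted p = 3.78e-12) and −1.06 ± 0.06 (adjusted p = 1.34e-12).

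Atp5o, the stalk subunit known as OSCP, fell, with log2 changes of −0.32 ± 0.08 (adjusted p = 0.00214) and −0.23 ± 0.08 (adjusted p = 0.0217), with 29.1% of its tail shared with other genes and 2 overlapping annotated genes under its symbol. The other stalk subunits, Atp5h and Atp5j, were at 0.07 and 0.14 with isoproterenol and did not pass, with 61.8% and 15.1% of their tails shared with other genes. In the F1 head, where ATP is made, the α, β, γ and δ subunits Atp5a1, Atp5b, Atp5c1 and Atp5d had log2 changes of −0.07, 0.08, −0.08 and −0.05 without isoproterenol, and none passed. The head's small ε subunit Atp5e stood at 202, 198, 202 and 201 RPM with control siRNA and 221, 247, 223 and 209 RPM with Cebpb siRNA. Under isoproterenol it was at 201, 236, 204 and 212 and 241, 260.4, 257 and 263 RPM. Its ranges were separate and it rose by 0.26 ± 0.05 (adjusted p = 0.000197) and 0.34 ± 0.05 (adjusted p = 1.04e-05).

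The c-ring is encoded by 3 genes with the same mature protein. Atp5g3 made up most of the c-ring reads (chr2:73908447-73911326, minus strand), at 1326, 1282, 1575 and 1641 RPM with control siRNA and 1075, 1132, 1112 and 1199 RPM with Cebpb siRNA. With isoproterenol it stood at 1333, 1396, 1478 and 1575 and 1148, 1139.5, 1175 and 866 RPM. The deposited ranges did not overlap, but after scaling they did without isoproterenol. In the setting with isoproterenol 1 Cebpb siRNA library lay below the rest, and the gene fell, with log2 changes of −0.26 ± 0.08 (adjusted p = 0.0088) and −0.35 ± 0.08 (adjusted p = 0.000859). Atp5g1 had a control mean of 25.3 ± 4.95 RPM and Atp5g2 of 1.76 ± 0.54 RPM (SD, n = 4). Neither passed, and both levels are uncertain, since 54.2% of the Atp5g1 tail and 100% of the Atp5g2 tail occur in other annotated genes.

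Summed over the subunits of each complex and scaled, the levels moved by little. Complex I subunits summed to 3259 ± 72.8 RPM with control siRNA and 3540.3 ± 86.1 RPM with Cebpb siRNA (SD, n = 4), and with isoproterenol to 3296 ± 85.6 and 3778 ± 127 RPM. Complex IV subunits summed to 2760.4 ± 95.4 and 3173 ± 164 RPM, and with isoproterenol to 2832 ± 168 and 3232 ± 155 RPM. Complex V subunits summed to 3461 ± 211 and 3118 ± 90.1 RPM, and with isoproterenol to 3450.2 ± 151 and 3118 ± 141 RPM. Without isoproterenol the Cebpb siRNA libraries lay above the controls for complex I and IV and below them for complex V. In complex V, Atp5g3 alone accounts for much of the sum. Before scaling the ranges of complex I and of complex IV overlapped in that setting. With isoproterenol the scaled ranges were separate for complex I. Those of complex IV overlapped (controls up to 3079, Cebpb siRNA from 3001 RPM). Those of complex V did too (controls from 3287, Cebpb siRNA up to 3306 RPM). Without Atp5g3 the complex V sums were 2036 ± 63.0 and 1934 ± 19.3 RPM, and with isoproterenol 2066 ± 73.9 and 2027 ± 91.1 RPM. As deposited, before scaling, the mean sum with Cebpb siRNA was 1.02 times that of the controls for complex I, 1.08 times for complex IV and 0.84 times for complex V. These sums are a description and were not tested.

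**Figure D3:**
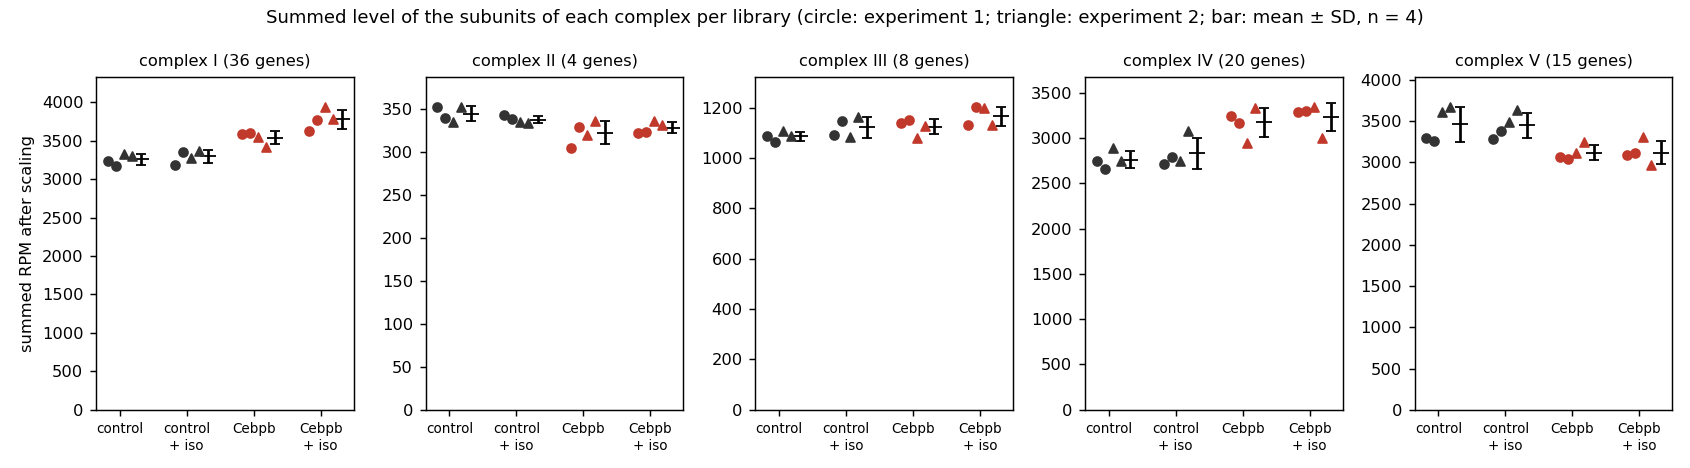
Summed level of the subunit genes of each complex in RPM after scaling (y axis), per library and by group (x axis), with assembly and coupling factors left out; circles are experiment 1, triangles experiment 2, and the bar is the mean ± SD of 4 libraries. The mean sums of complex I and IV are slightly higher and that of complex V slightly lower in the Cebpb siRNA libraries (red) than in the control siRNA libraries (black), against axes that start at 0. With isoproterenol the ranges of complex IV and of complex V overlap.

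The siRNA comparisons without and with isoproterenol share no library. Of the 42 genes called without isoproterenol, 36 were called the same way with it, which is 85.7% of the first list and 75.0% of the 48 genes of the second. These were 25 higher and 11 lower genes, and 0 had opposite calls. Of all genes tested, 60.8% were called without isoproterenol and 61.6% with it. Their overlap was not computed, so these shares are not read as particular to respiratory chain genes. The sign was shared by experiment 1 and experiment 2 for 42 of the 42 and for 48 of the 48. These genes were called from both experiments together, which favours a shared sign. That count is thus a description and no replication. Over the 90 genes the log2 changes of both settings had a Pearson r of 0.914, given as a description, since the points share libraries.

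**Figure D4:**
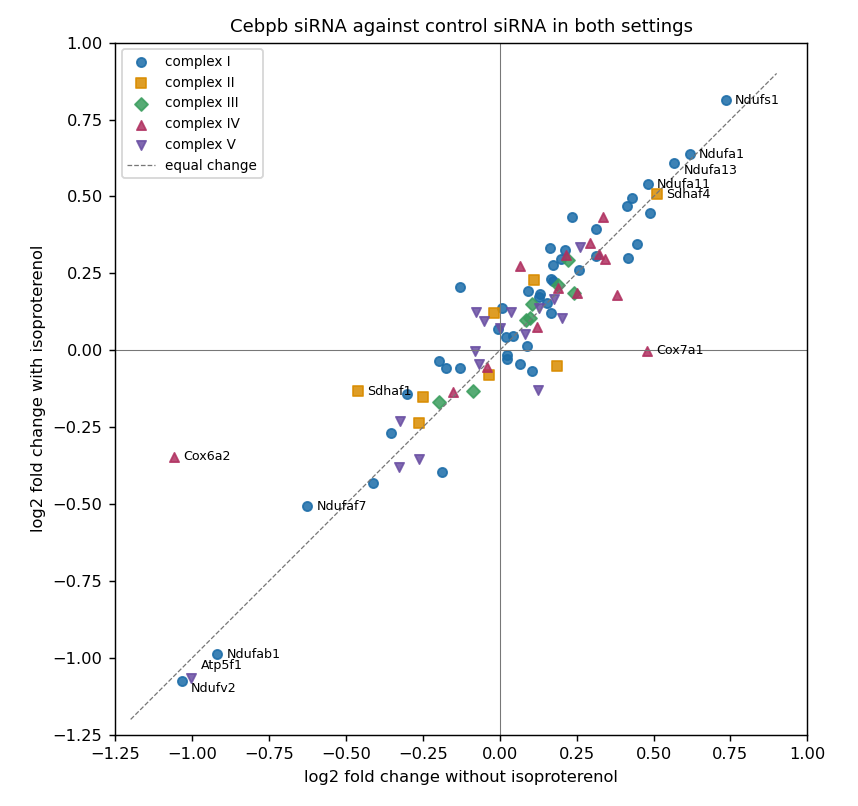
Log2 fold change of Cebpb siRNA against control siRNA without isoproterenol (x axis) and with it (y axis) for the 90 tested genes, with marker and colour by complex and a dashed line of equal change. Ndufv2, Atp5f1 and Ndufab1 lie near −1 on both axes, and Cox6a2 and Cox7a1, both close to the floor, lie farthest from the line.

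Isoproterenol changed hardly any respiratory chain gene past the threshold. In control siRNA cells 1 of 90 genes was called (1.11%), against 1.54% of all genes tested. That gene was Cox6a2, whose levels near the floor are given above, at −0.71 ± 0.17 (adjusted p = 0.0277). In Cebpb siRNA cells 1 of 90 was called, against 5.43% of all genes. It was Ndufaf4, a complex I assembly factor (chr4:24898083-24905001, plus strand), at 49.4, 49.4, 56.5 and 54.4 RPM without and 47.6, 47.1, 46.2 and 47.7 RPM with isoproterenol. The ranges were separate, and it fell, with a log2 change of −0.21 ± 0.06 (adjusted p = 0.0413). In control siRNA cells it stood at 48.8, 48.4, 53.5 and 57.6 and 47.0, 51.6, 54.4 and 55.0 RPM, with overlap and a log2 change of −0.03.

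Both calls were lost under several other settings. On deposited values Cox6a2 remained, and in Cebpb siRNA cells Ndufaf4 gave way to 3 rises, of Ndufb7, Ndufv3 and Cox7b. Estimates were above 0 for 59 of the 90 genes in control siRNA cells and 63 in Cebpb siRNA cells, with medians of 0.03 and 0.06 beside −0.001 and −0.007 over all genes. The isoproterenol effects differed between the siRNAs for 0 of the 90 genes by limma, against 0.224% of all genes, and 4 had an unadjusted p below 0.05. The smallest were for Cox6a2, with a difference of 0.71 ± 0.23 (adjusted p = 0.415), Ndufa5 with 0.33 ± 0.13 (adjusted p = 0.614), and Sdhaf1 with 0.33 ± 0.14 (adjusted p = 0.693).

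**Figure D5:**
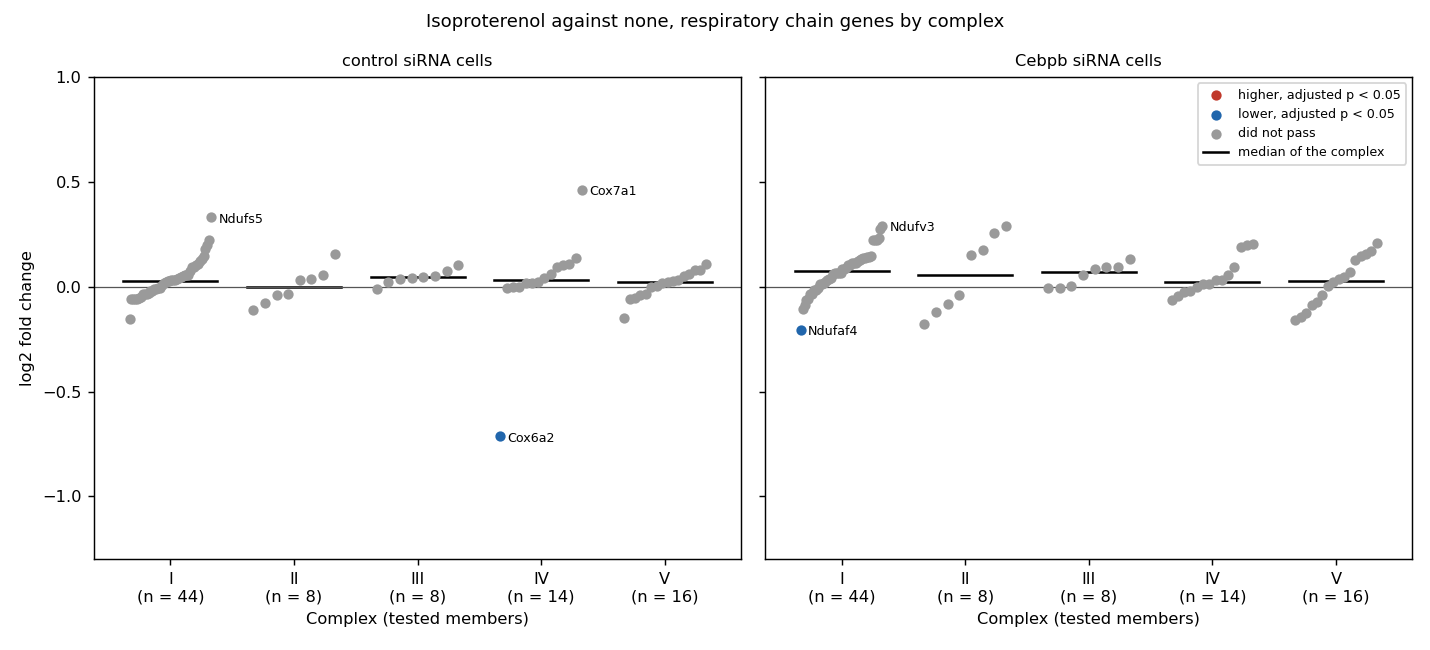
Log2 fold change of isoproterenol against none (y axis) for the 90 tested genes by complex (x axis), in control siRNA cells on the left and Cebpb siRNA cells on the right, on the same y scale as the plot of the siRNA changes. Apart from Cox6a2 and Cox7a1 near the floor, no point lies farther from 0 than Ndufs5, at 0.33 on the left. Ndufs5 was itself low, at a mean of 3.87 RPM over the 16 libraries, and 54.6% of its tail is shared with another gene. The only blue point of each panel is Cox6a2 on the left and Ndufaf4 on the right.

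Between the experiments, 18 of the 90 genes differed (20%, against 32.6% of all genes), 11 being higher and 7 lower in experiment 2. The experiment was a term of the fit, and experiment 2 alone gave fewer calls for the siRNA, 25 and 26. Experiment 2 holds the shallowest library, one of Cebpb siRNA without isoproterenol, and a part of depth in these counts was not tested. Over all genes tested the share called was also lower there, at 43.5% and 45.8%, against 60.8% and 61.6% in the full fit. Experiment 1 alone gave 49 and 44 calls, beside 53.5% and 54.9% of all genes.

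Other genes of the pathway were read from lists. Of the 13 mitochondrially encoded subunits 7 were tested and 6 were listed at 0 in all libraries. A listing at 0 need not mean that the transcript was absent, since multimapping reads lie outside the gene values. Whether that holds for these 6 was not tested. Cebpb siRNA raised 2 of the 7 without isoproterenol and 3 with it, against 31.3% and 31.8% of all genes tested. mt-Nd5, a proton-pumping subunit of complex I, rose by 0.30 ± 0.07 (adjusted p = 0.00155) and 0.43 ± 0.07 (adjusted p = 3.56e-05). Isoproterenol raised 3 of the 7 in Cebpb siRNA cells, namely mt-Nd4 by 0.57 ± 0.10 (adjusted p = 0.00164), mt-Nd5 by 0.29 ± 0.07 (adjusted p = 0.0235) and mt-Cytb by 0.39 ± 0.06 (adjusted p = 0.000361). In control siRNA cells none of the 7 passed by limma, with 2 at an unadjusted p below 0.05. Of the 44 nuclear complex I genes 1 was called for isoproterenol in Cebpb siRNA cells (2.27%). Of all genes tested, isoproterenol moved 5.43% in Cebpb siRNA cells and 1.54% in control siRNA cells. The difference between the siRNAs did not pass for mt-Nd4, mt-Nd5 or mt-Cytb, and mt-Nd4, where it was largest, was at 0.38 ± 0.15 (adjusted p = 0.576).

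Among 42 tested assembly factors outside the name rule, Cebpb siRNA raised 12 and lowered 14 without isoproterenol. Cox20, a chaperone of a mitochondrially encoded complex IV subunit, fell, with a log2 change of −2.04 ± 0.12 (adjusted p = 4.59e-12), more than any of the 90 genes. Cmc2, a further complex IV factor, fell, with a log2 change of −1.22 ± 0.10 (adjusted p = 1.91e-09), and Cox14, another such factor, rose by 0.48 ± 0.06 (adjusted p = 4.21e-07). Of 21 electron carriers and other inputs 5 rose and 6 fell. These include the coenzyme Q genes Coq5, at 0.62, Coq7, at −0.48, and Pdss2, at −0.79, each with an adjusted p below 0.05.

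Of 16 tested transcriptional regulators of mitochondrial genes 2 rose and 7 fell. Ppargc1b, a coactivator of mitochondrial genes, fell, with a log2 change of −1.08 ± 0.10 (adjusted p = 1.04e-08), Nrf1, a transcription factor for respiratory genes, with one of −0.80 ± 0.11 (adjusted p = 2.82e-06), and the deacetylase Sirt1 with one of −1.02 ± 0.11 (adjusted p = 5.92e-08). Of 17 genes of the tricarboxylic acid cycle 3 rose and 5 fell, among them Dlst of the oxoglutarate dehydrogenase complex, at −1.65 ± 0.07 (adjusted p = 2.86e-14) and the isocitrate dehydrogenase Idh2, at −0.71. Of 24 import genes 4 rose and 10 fell, with the small import chaperone Timm8b at −1.17, the cytosolic co-chaperone Tomm34 at −0.88 and the chaperonin Hspd1 at −0.77. Of 8 partners and inhibitors of the chain 1 rose and 4 fell: the uncoupling protein Ucp2 rose by 0.69 ± 0.08 (adjusted p = 1.54e-07), and the outer membrane channels Vdac1 and Vdac3 fell, with log2 changes of −0.53 and −0.33. Beside these counts, 31.3% of all tested genes were higher and 29.6% lower.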

How the data were processed

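Total RNA of RAW 264.7 cells went into 16 Lexogen QuantSeq 3′ FWD libraries, per the labels' protocols. The submitters' processing notes name STAR 2.5.3a and GRCm38; the sources used here do not say how reads were counted or whether by strand, so reads of overlapping genes may be mixed. The authors deposited log2 of RPM (reads per 1000000 sequenced reads of any kind), with 1 RPM or less set to 0. That reading of the unit comes from the values, which multiplied back gave whole reads, within 0.1 read, for 100% of entries. Multimapping reads (19.4 to 22.3% of a library) lie outside the gene values. Because the unit is log2, limma 3.58.1 (R 4.3.3, with trend and robust estimation) was used rather than a count model. Scaling between libraries used a trimmed mean of log ratios (30% by ratio, 5% by level), with a common floor. The fit had group and experiment as terms and covered 11141 genes. RPM levels are unscaled, with SDs over 4 libraries; sums per complex are scaled. Groups follow the labelled siRNA and agent. Coordinates, 3′ UTRs and the share of a gene's tail found elsewhere (words of 50 bases in its last 300 bases) come from GENCODE vM21. Alternatives were other scalings, floors and filters, each experiment alone, fits without the experiment term or with a replicate block, the 8 libraries of a comparison alone, and each library left out.

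The genes and lists were chosen with earlier results of these data known. Genes were named by rule: for each siRNA comparison the 12 largest rises and the 12 largest falls that passed, with the same sign in both experiments and a mean of at least 10 RPM; for isoproterenol, every called gene or else the 3 smallest p; all isoform families, complex II subunits and core subunits of complex I; and up to 3 genes per outside list by smallest p without isoproterenol. Others were added for their role in a complex after values were seen; 2 genes that the rule names are not reported here. Python tables used pandas 2.3.3.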

Additional observations from a re-analysis of the deposited data

Results flagged for a closer look

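In 4 of 112 groups of 4 libraries looked at, 1 library stood apart from the other 3 by more of the group's range than Dixon's 95% critical value allows; chance flags about 1 group in 20. Ndufa1 stood at 80.5 RPM in replicate 2 of experiment 2 of control siRNA with isoproterenol, above 58.9 to 61.7 RPM in the others. Cox4i1 stood at 279 RPM in replicate 1 of experiment 2 of Cebpb siRNA, below 324 to 329.9 RPM. In replicate 2 of experiment 2 of Cebpb siRNA with isoproterenol, Atp5g3 stood at 866 RPM, below 1139.5 to 1175 RPM, and the scaled sum of complex IV at 3001 RPM, below 3290 to 3339.6 RPM.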

How the results depend on the processing

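Calls near the threshold depend on the scaling, on experiment 2, which gave fewer calls, and on the floor of 1 RPM, near which changes are understated. Without isoproterenol the count of genes changed by Cebpb siRNA was 42, and it was 25 in experiment 2 alone. With isoproterenol it was 48, and 26 in experiment 2 alone. Over all genes tested the share called in experiment 2 alone was 43.5% and 45.8%, against 60.8% and 61.6% in the full fit. Left-out libraries gave 35 to 45 and 40 to 50. The single isoproterenol call in control siRNA cells, Cox6a2, became 0 with genes above the floor in all 16 libraries (it was no longer tested), with log2 of RPM plus 1, with no term for the experiment and in experiment 2 alone, and it ranged from 0 to 1 with 1 library left out. The single call in Cebpb siRNA cells, Ndufaf4, became 0 without trend and robust estimation, with no term for the experiment, in experiment 2 alone and with the 8 libraries compared alone, while experiment 1 alone gave 2 calls and the deposited values 3, none of them Ndufaf4. With 1 library left out the number of calls ranged from 0 to 4, the latter without replicate 1 of experiment 1 of Cebpb siRNA with isoproterenol. A fall was called only in that fit and in the one without replicate 2 of experiment 1 of Cebpb siRNA. Leaving out any other single library thus lost the call of Ndufaf4. The cause of these losses was not tested. The difference between isoproterenol effects stayed at 0 calls under every alternative run; the fit of 8 libraries alone could not be made for it.

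Libraries of the same number did not deviate together (correlations of −0.19 to 0.23 over 12 pairs), so a number only names a library. With the replicate block the siRNA gave 42 and 46 calls and isoproterenol 1 and 0. For the genes named, 2340 combinations of a gene and an alternative were computed; 140 lost the call, 31 gained one and 0 reversed. Of 87 named changes, 14 lost the call when 1 library was left out, among them Uqcrc2, Atp5o, Cox5a, Uqcrq, Cox8a, Cox7a2l and Ndufv1 with isoproterenol and Ndufs7, Ndufb3 and Cox7a1 without it.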
